A study of Homo sapiens with 60 samples.

Results

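The dose step examined here is Medium against Low of 2 hot-water herbal formulas, Sibjeondaebo-tang (SDT) and Palmul-tang (PMT), pooled with the formula as a factor. It rests on 10 of the 60 libraries of the series, 5 at each dose: 3 of SDT and 2 of PMT. All libraries are messenger RNA from HepG2, an established human liver cancer line, kept 24 h with an extract or with vehicle. Medium was 100 µg/mL and Low was 20 µg/mL, and 500 µg/mL (High, 5 libraries of the same formulas) and the 3 vehicle libraries are given as reference levels. Vehicle is 0.1% DMSO in the sample labels and 2% in the series text, and the DMSO content of the treated cultures is not given. The sample descriptions carry a set code, shared by all formula libraries and different from that of vehicle, so extract and set cannot be told apart in any comparison with vehicle. Medium and Low share that code. The labels do not say that replicates are separate cultures, so the p-values measure the spread between these libraries, which may be technical.

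PMT is a classical tonic formula whose herbs include, among others, ginseng and Atractylodes rhizome, and SDT adds astragalus and cinnamon to it. Sample titles do not list the herbs, so which other single herbs of the series belong to the formulas is not given here. Plant extracts carry flavonoids and other ring compounds that can bind the aryl hydrocarbon receptor (AhR). Bound AhR pairs with ARNT on DNA and switches on CYP1A1, an enzyme that oxidises polycyclic compounds. Hepatocytes also make hepcidin, encoded by HAMP, the peptide hormone that blocks iron export. Its transcription is driven by BMP signals through SMAD proteins and by inflammatory signals through STAT3. The hypoxia-inducible factor (HIF) response raises glucose transporters, glycolytic enzymes and mitophagy receptors.

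The members are these 10 libraries, whose totals ran from 19057280 to 29423726 counts. Transcripts of the mitochondrial genome made up 17.7% to 21.8% of counts at Low and 17.8% to 19.8% at Medium, and the highest values at Low were those of the third replicates of SDT (21.3%) and PMT (21.8%). Those 2 libraries also lay apart on the first 2 principal components, which took 14.2% and 13.2% of the variance, so results are also given without both. All 8 hepatocyte and hepatoma markers were at 1 CPM or more at both doses. Among endothelial markers KDR, TEK, CLEC4G and EMCN were at 0 in every Low and Medium library, and among leukocyte markers PTPRC, CD3E and MS4A1 were. The summed level over both doses ran from 2.37 to 3.23 CPM for the 8 endothelial markers, 1147 to 1346 for the 10 leukocyte and macrophage markers, 66.5 to 75.1 for the 10 fibroblast and stellate markers and 345 to 381 for the 7 biliary markers, with 1, 3, 3 and 3 of them at 1 CPM or more. The part of such markers in the results was not tested.

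The step from Low to Medium moved few genes past the test. Of 15000 genes tested, 6 rose and 3 fell at an adjusted p under 0.05 (edgeR quasi-likelihood test with Benjamini-Hochberg adjustment), which is 0.06% of those tested, 0.04% upward and 0.02% downward. Those that rose included CYP1A1, PFKFB4, SLC2A3, TMCC1 and PEDS1-UBE2V1, and the 3 that fell were HAMP, DEPP1 and HDAC5. For each of the 9 genes the 5 Medium libraries did not overlap the 5 Low libraries. Over all genes tested, 0.553% had every Medium library above every Low library and 0.687% every Medium library below. Apart from CYP1A1, HAMP and PEDS1-UBE2V1, the called steps were between 0.24 and 0.38 on the log2 scale. The median of all genes was -0.00 and 7460 genes were above 0. In bulk RNA, a change in the number of cells of one kind and a change in RNA per cell cannot be told apart.

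**Figure D1:**
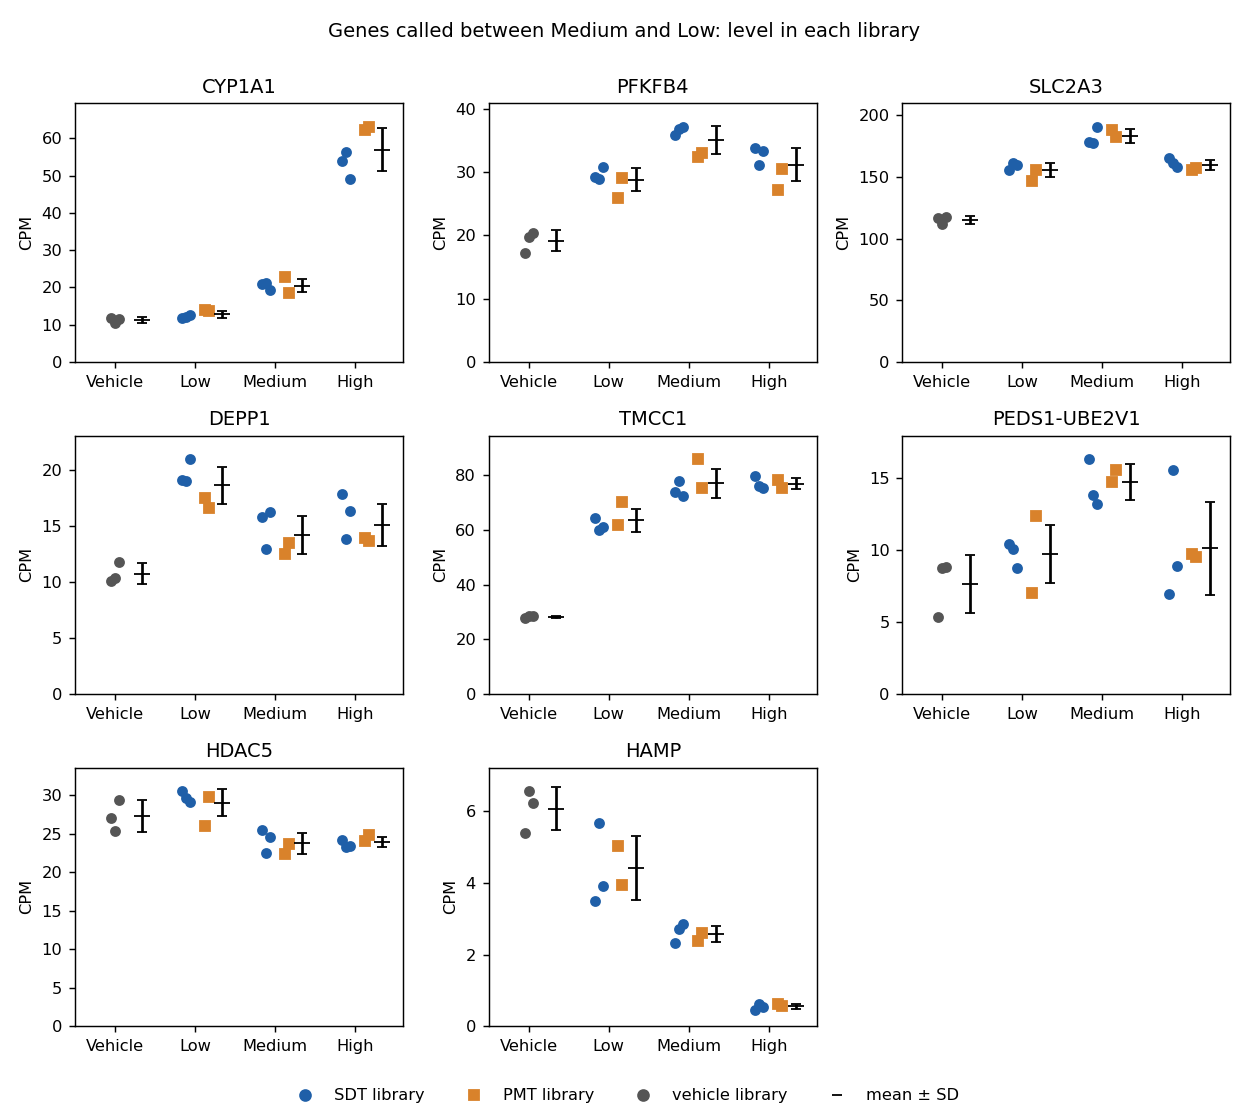
Level in CPM (a gene's counts scaled to library size, linear axes from 0) of 8 of the genes called between Medium and Low, one point per library, for vehicle and the 3 doses of SDT (circles) and PMT (squares), with the mean ± SD over both formulas. CYP1A1 climbs from 11.8 to 14.0 at Low to 49.2 to 63.1 at High and HAMP falls from 3.50 to 5.66 to 0.45 to 0.62, whereas SLC2A3 has its highest values at Medium.

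A short stretch upstream of CYP1A1, the called gene with the largest rise, is shown because it holds the letters GCGTG. Whether this stretch takes part in the control of the gene was not tested. It comes from the RefSeq sequences on GRCh38.p14, at chr15:74725569-74725597, minus strand, and lies within 250 bases before the RefSeq start, inside the first exon of longer GENCODE transcripts. GCGTG, the core searched for AhR, is in capitals. Only this core was searched, not a longer AhR site.
CYP1A1: ccagggaaggagGCGTGgccacacgtaca
Searched on both strands, GCGTG was found in 32.2% of 35116 upstream windows of this length. The match describes letters and nothing about which factor was bound here.

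CYP1A1 (ENSG00000140465, chr15:74719542-74725610, minus strand) had the smallest p of all genes. At Low its level was 11.8, 12.1 and 12.7 CPM in SDT and 14.0 and 13.7 in PMT. At Medium it was 20.96, 21.09 and 19.35 in SDT and 22.75 and 18.43 in PMT. The lowest Medium library thus lay above the highest Low library, and the Low libraries were at or just above the vehicle range of 10.4 to 11.9. The step was 0.68 on the log2 scale (SE 0.064, 95% interval 0.55 to 0.81, adjusted p = 7.7e-05), a fold of 1.60. CYP1A1 was the one gene called in all 10 fits that left out 1 library, with adjusted p between 4.2e-06 and 0.00076, and in every other setting tried.

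Other members of the AhR battery were measured beside it. ALDH3A1, an aldehyde dehydrogenase under AhR control, ran from 0.782 to 1.73 CPM at Low and from 1.35 to 2.38 at Medium. These ranges overlap, and its step of 0.71 (SE 0.19) had an adjusted p of 0.42. NQO1, a quinone reductase shared with the NRF2 response, was at 291.7 to 333.2 CPM at Low and 321.7 to 360.1 at Medium, a step of 0.14 (SE 0.041, adjusted p = 0.52). AHRR, the receptor's repressor, was at or below 0.617 CPM and TIPARP, another direct target, differed by 0.03 (SE 0.044). Of 10 members tested, 1 was called, against 0.06% of all genes, and 6 were above 0, with a median of 0.05. With an unadjusted p under 0.05, 4 were higher and 1 lower, against 2.81% and 3.15% of all genes tested. UGT1A6, named after its values were seen, had the largest step of the list, 1.00 (SE 0.45, adjusted p = 0.80). It was at or below 0.767 CPM in all 10 libraries, and the doses overlapped. ARNT, the partner protein, was at 41.4 to 45.6 CPM at Low and 37.9 to 41.4 at Medium, just without overlap, and its step of -0.10 had an adjusted p of 0.75.

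From Medium to High the list divided, with the High mean below the Medium mean for 4 of the 10 members. A High against Medium fit over the 15 formula libraries, chosen after the values were seen, called 150 of 15401 genes (0.974%). CYP1A1 rose by a further 1.47 (SE 0.056, adjusted p = 4e-13), ALDH3A1 by 0.99 (adjusted p = 0.00038) and NQO1 by 0.34 (adjusted p = 0.00017), the 3 members called there. TIPARP differed by -0.14 (adjusted p = 0.22) and ARNT by -0.06 (adjusted p = 0.69).

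HAMP (ENSG00000105697, chr19:35280716-35285143, plus strand) had the largest fall among the genes called. Low libraries held 3.50, 5.66 and 3.91 CPM in SDT and 5.03 and 3.94 in PMT. Medium libraries held 2.34, 2.71 and 2.86 in SDT and 2.38 and 2.61 in PMT. The Medium libraries lay close together, all below the lowest Low library, and vehicle stood at 5.40 to 6.56. The step was -0.78 (SE 0.14, 95% interval -1.07 to -0.49, adjusted p = 0.0495), a fold of 0.583. This call sat at the threshold: with any 1 of the 10 libraries left out, its adjusted p was 0.054 to 0.24, while the step stayed between -0.86 and -0.65.

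HAMP was the one called gene of the 20 members tested on the iron and heme list, of which 10 were above 0 with a median of 0.00. The 3 further members with unadjusted p under 0.05, named after their values were seen, were also lower at Medium. TFR2, the iron-sensing receptor that acts upstream of hepcidin, differed by -0.14 (adjusted p = 0.60). ID3 and SMAD7, both textbook BMP-SMAD targets, differed by -0.20 (adjusted p = 0.66) and -0.24 (adjusted p = 0.72). ID1 and SMAD6, further BMP-SMAD targets, differed by -0.04 and -0.05 (adjusted p = 0.95 and 0.98). No member of this list reached an unadjusted p under 0.05 in the upward direction. TFRC, the cell's transferrin receptor, was at 1393 to 1566 CPM at Low and 1463 to 1556 at Medium, so the doses overlapped fully. From Medium to High, HAMP fell by 2.203 (SE 0.18, adjusted p = 3.6e-07), ID3 by 1.15 (adjusted p = 2.6e-09), SMAD7 by 0.56 (adjusted p = 0.0029) and ID2, another BMP target, by 0.58 (adjusted p = 1.5e-06). In the same fit ID1 differed by -0.89 (adjusted p = 3.1e-08) and SMAD6 by -0.24 (adjusted p = 0.45). FTL, a ferritin gene, was the 1 member called upward there, by 0.31 (adjusted p = 0.0036). At High, HAMP was down to 0.45 to 0.62 CPM.

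SLC2A3 (chr12:7919230-7936275), the glucose transporter GLUT3, was at 155.5, 161.0 and 159.5 CPM in SDT Low and 146.6 and 155.5 in PMT Low. Medium values were 178.0, 177.2 and 190.5 in SDT and 187.9 and 182.2 in PMT. No Medium library reached down to the Low range. The step was 0.24 (SE 0.038, adjusted p = 0.028). PFKFB4 (chr3:48517684-48562015), a kinase-phosphatase that sets fructose 2,6-bisphosphate and so glycolytic flux, is on the hypoxia list. It was at 29.2, 28.9 and 30.8 CPM in SDT Low and 25.9 and 29.1 in PMT Low, against 35.8, 36.7 and 37.1 in SDT Medium and 32.37 and 33.001 in PMT Medium. In both formulas the Medium libraries stood above their own Low libraries, by 0.28 over both (SE 0.043, adjusted p = 0.028).

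The hypoxia list as a whole leaned upward. Of 25 members tested, 1 was called (PFKFB4), 21 were above 0 and the median was 0.09, against -0.00 for all genes. With an unadjusted p under 0.05, 10 were higher and 0 lower, where 2.81% of all genes tested were higher and 3.15% lower by that rule. In 6 of the 25, every Medium library was above every Low library: PFKFB4, HK2, PDK1, BNIP3, EGLN1 and BNIP3L, the last 4 named after their values were seen. Over all genes tested, that share was 0.553%. HK2, the hexokinase that traps glucose in the cell, was at 137.7, 129.4 and 131.1 CPM in SDT Low and 123.8 and 132.0 in PMT Low, against 145.2 to 154.7 over the Medium libraries. Its step of 0.18 (SE 0.036) had an adjusted p of 0.089. PDK1, which keeps pyruvate out of the mitochondrion, was at 52.6 to 59.1 CPM at Low and 63.3 to 67.8 at Medium, a step of 0.21 (SE 0.042, adjusted p = 0.11). The mitophagy receptors BNIP3 and BNIP3L differed by 0.16 each (adjusted p = 0.21 and 0.45), and EGLN1, the oxygen sensor that marks HIF for decay, by 0.14 (adjusted p = 0.42). CA9, a carbonic anhydrase used as a hypoxia marker, had the largest step of the list, 0.43, but its 3.11 to 5.01 CPM at Low overlapped the 4.86 to 6.59 at Medium (adjusted p = 0.47). VEGFA, the vascular growth factor, and SLC2A1, the glucose transporter GLUT1, differed by 0.05 and 0.07, and HIF1A itself by 0.00.

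**Figure D2:**
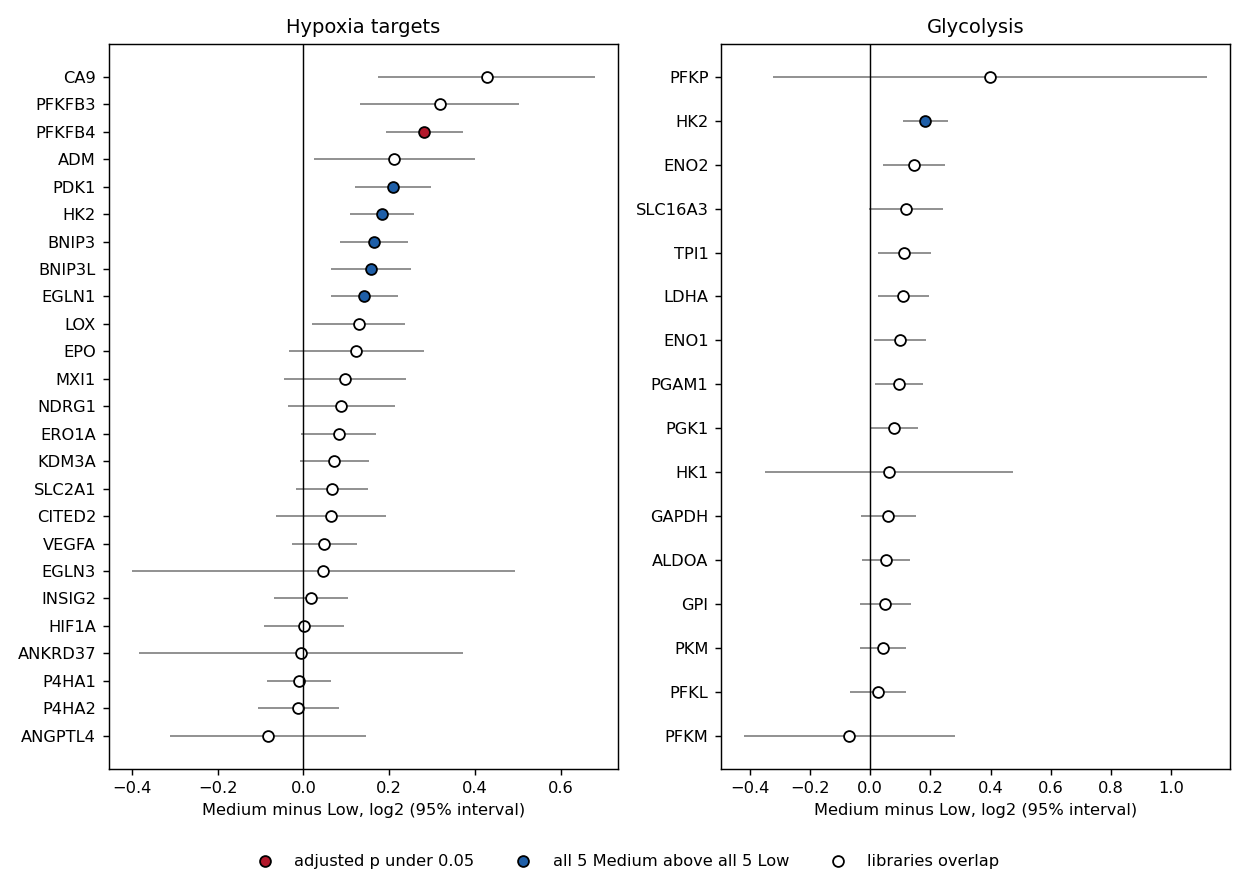
Medium minus Low on the log2 scale with 95% intervals for the 25 hypoxia targets and 16 glycolysis genes tested, over both formulas. Red marks an adjusted p under 0.05 (PFKFB4), blue marks genes whose 5 Medium libraries all lie above the 5 Low libraries without that call, and 21 of 25 and 15 of 16 points lie above 0.

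Glycolytic enzymes leaned the same way. None of the 16 tested was called, 15 were above 0 and the median was 0.09. Unadjusted p was under 0.05 for 6, all upward: HK2, ENO2, TPI1, LDHA, PGAM1 and ENO1, of which all but HK2 and ENO2 were named after their values were seen. LDHA, which turns pyruvate into lactate, differed by 0.11 and ENO1, an enolase, by 0.10. Their ranges overlapped between doses, and SDT Low replicate 3 had the lowest value of the 10 libraries for both (1371 and 908.8 CPM). Without SDT Medium 3 or SDT Low 3 the 6 became 3. Without both SDT Low 3 and PMT Low 3, the glycolysis median was 0.07 with 4 of 16 at an unadjusted p under 0.05, and the hypoxia median was 0.13 with 13 of 25.

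Vehicle and High levels placed the hypoxia and glycolysis lists differently. For 24 of the 25 hypoxia targets the Low mean was above the vehicle mean, a comparison in which extract and set cannot be told apart. For 20 of the 25 the High mean was below the Medium mean. For glycolysis the Low mean was above the vehicle mean in 6 of 16 genes and the High mean below the Medium mean in 7 of 16. ENO1, for one, had a mean of 1175 CPM in vehicle, 1020 at Low and 1091 at Medium. SLC2A3 fell from Medium to High by 0.20 (SE 0.033, adjusted p = 0.0023), to 155.4 to 165.5 CPM, so 2 of 5 High libraries were still above every Low library. For PFKFB4 the High minus Medium difference was -0.17 (adjusted p = 0.062). Within the hypoxia list 2 members were called between High and Medium, both downward.

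TMCC1 (chr3:129647792-129893606), a membrane protein of the endoplasmic reticulum, was at 64.1, 59.8 and 61.1 CPM in SDT Low and 61.7 and 70.2 in PMT Low. At Medium it was at 73.7, 77.9 and 72.4 in SDT and 85.8 and 75.3 in PMT, a step of 0.28 (SE 0.047, adjusted p = 0.033). Its High level of 75.3 to 79.6 CPM overlapped Medium. PEDS1-UBE2V1 (chr20:50081124-50153637) is a readthrough transcript of 2 neighbouring genes, so its expected counts depend on how reads were divided with them. It went from 7.01 to 12.4 CPM at Low to 13.2 to 16.3 at Medium (step 0.60, SE 0.10, adjusted p = 0.039) and lay between 6.98 and 15.5 at High.

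DEPP1 (chr10:44970981-44978810), a FOXO target linked to autophagy, was at 19.08, 18.98 and 20.98 CPM in SDT Low and 17.51 and 16.58 in PMT Low. At Medium it was at 15.82, 12.96 and 16.29 in SDT and 12.47 and 13.47 in PMT. The margin was narrow, the highest Medium library lying only just under the lowest Low library. The step was -0.38 (SE 0.062, adjusted p = 0.030). HDAC5 (chr17:44076746-44123702), a class IIa histone deacetylase, went from 26.1 to 30.6 CPM at Low to 22.4 to 25.5 at Medium (step -0.28, SE 0.049, adjusted p = 0.039). Both differed little between Medium and High, by 0.08 and 0.01. The next genes in the downward order were RAB17, an epithelial trafficking GTPase, at -0.27 (adjusted p = 0.087), and FRY, a scaffold protein, at -0.24 (adjusted p = 0.089), neither called.

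How firmly these calls stand differed between genes. Leaving out 1 library at a time, PFKFB4 was called in 3 of 10 fits (without SDT Medium 1, PMT Low 3 or SDT Low 3), and TMCC1 in 2 (without SDT Medium 1 or PMT Low 3). DEPP1 was called in 2 (without SDT Medium 1 or SDT Medium 3), SLC2A3 and HDAC5 in 1 (without SDT Medium 1), and PEDS1-UBE2V1 in 1 (without PMT Low 3). In all other such fits these calls were lost, with adjusted p up to 0.18, and no step changed direction. Leaving out both SDT Low 3 and PMT Low 3 together kept 4 of the 9 calls, among them those of CYP1A1, PFKFB4 and PEDS1-UBE2V1.

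Beyond these genes, other gene lists were described by their counts. NRF2 targets, the antioxidant and glutathione genes, had 18 of 23 above 0 with a median of 0.04 and 7 at an unadjusted p under 0.05, all upward, and none called. That 7 became 4 without PMT Medium 2 or PMT Low 3, and without both SDT Low 3 and PMT Low 3 it was 3, with 14 of 23 above 0 and a median of 0.03. GCLM, the regulatory subunit of the enzyme that limits glutathione synthesis, came closest: it was at 27.1 to 32.8 CPM at Low and 33.4 to 36.8 at Medium, without overlap (step 0.22, SE 0.047, adjusted p = 0.13). AKR1B10, an aldo-keto reductase induced by NRF2, was at 30.5 to 36.8 CPM at Low and 32.9 to 40.2 at Medium (step 0.20, SE 0.058, adjusted p = 0.49). From Medium to High, GCLM rose by 0.23 (adjusted p = 0.015) and AKR1B10 by 0.50 (adjusted p = 6.1e-05).

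Secreted liver proteins leaned the other way. On the hepatocyte list 7 of 30 members were above 0 with a median of -0.04, and on the complement and coagulation list 4 of 26 with a median of -0.05. MBL2, with the smallest adjusted p of the complement and coagulation list, was higher at Medium by 0.17 (adjusted p = 0.47). Albumin (ALB), the main plasma protein, was at 9269 to 10128 CPM at Low and 8674 to 9282 at Medium, overlapping by 1 library, with a step of -0.12 (SE 0.037, adjusted p = 0.59). ITIH3, an acute phase protein, was at 117.8 to 129.95 CPM at Low and 104.5 to 115.8 at Medium, without overlap (step -0.17, SE 0.039, adjusted p = 0.21). The transcription factor HNF4A differed by 0.00. The glucocorticoid- and insulin-responsive kinase SGK1 was lower in every Medium library (21.7 to 24.4 CPM against 25.8 to 28.1), a step of -0.23 with an adjusted p of 0.11.

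Lists of proliferation and translation had small positive medians: 0.04 for mitosis (21 of 27 above 0), 0.03 for DNA replication (23 of 28) and 0.04 for the aminoacyl-tRNA synthetases (17 of 18). No member of these 3 lists was called. Without both SDT Low 3 and PMT Low 3 the DNA replication median was 0.01 and those of mitosis and the synthetases 0.02, with 17 of 28, 22 of 27 and 10 of 18 above 0. Replication-dependent histones leaned the other way, with a median of -0.12 and 2 of 10 above 0, and a median of -0.15 without both libraries. Cytosolic ribosomal proteins had a median of 0.00 with 18 of 31 above 0, but a median of -0.04 with 4 of 31 without both libraries. The 13 mitochondrially encoded transcripts had a median of -0.07 with 2 above 0, and MT-CYB, a subunit of complex III, differed by -0.17 (adjusted p = 0.63). This list turned with the 2 libraries named above: without both, its median was 0.06 and 9 of 13 were above 0.

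**Figure D3:**
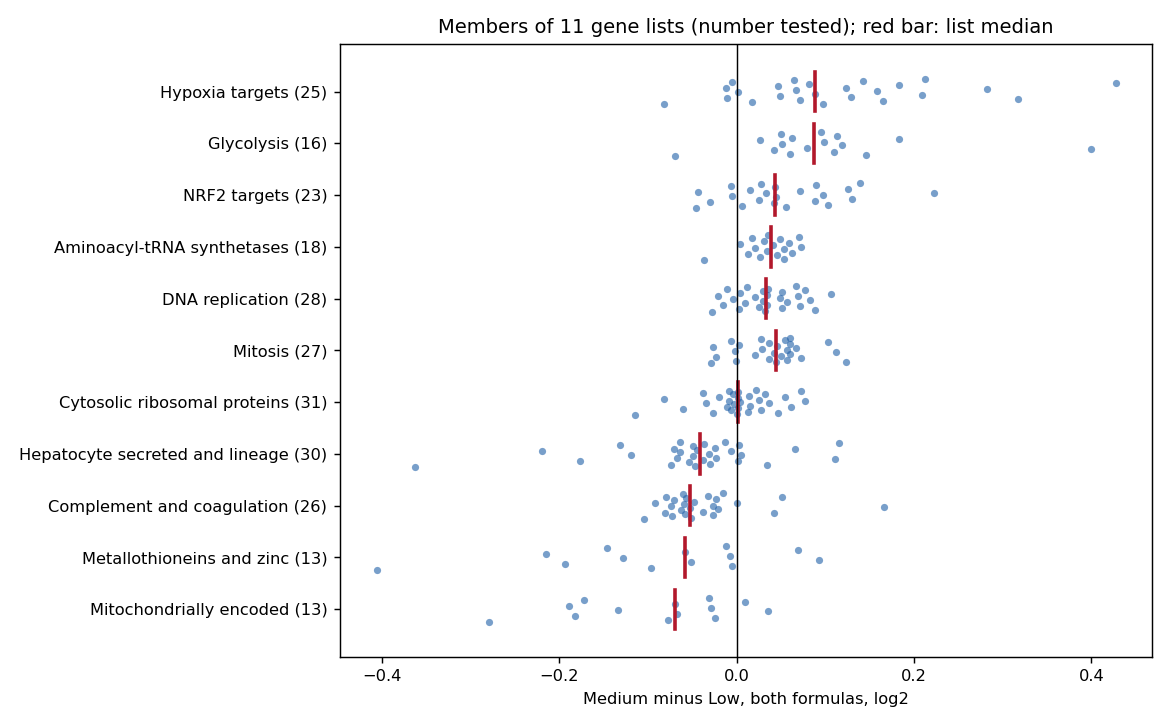
Medium minus Low on the log2 scale for the members of 11 gene lists, 1 point per gene, with the list median as a red bar and the number tested in parentheses. Among these 11 lists, hypoxia targets and glycolysis genes lie furthest to the right (medians 0.09) and the mitochondrially encoded transcripts furthest to the left (median -0.07). Cytosolic ribosomal proteins centre on 0 with all 10 libraries, and had a median of -0.04 without both SDT Low 3 and PMT Low 3. Among lists not drawn, NF-kB targets had a median of 0.09, replication-dependent histones -0.12 and the 3 polymerase III RNAs tested -0.28. Over the fits leaving out 1 library, the polymerase III median ran from -0.53 to 0.0022.

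The formulas were also fitted apart. Within SDT, 2 genes were called (0.0133% of those tested): CYP1A1 with a step of 0.75 (SE 0.080, adjusted p = 0.0013) and ENSG00000280211, an entry of unclear coding status, with -1.41 (SE 0.20, adjusted p = 0.022). Without any 1 of SDT Medium 1, SDT Medium 2, SDT Low 1, SDT Low 2 or SDT Low 3 the second call was lost (adjusted p up to 0.18). Within PMT, with 2 libraries a dose, edgeR called 0 genes (0%) and DESeq2 called 2. An unadjusted p under 0.05 was found there for 739 of 15000 genes by edgeR, a share no larger than that threshold. The CYP1A1 step in PMT was 0.57 (SE 0.10, adjusted p = 0.27) and that of HAMP was -0.84, against -0.74 in SDT. For CYP1A1 the SDT step minus the PMT step was 0.17 (95% interval -0.10 to 0.45), and for HAMP 0.10 (-0.53 to 0.74), so neither formula was shown to move them more. SLC2A3 differed by 0.20 in SDT and 0.29 in PMT, and TMCC1 by 0.28 and 0.29.

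A direct test of the SDT step against the PMT step called 2 genes (0.0133%). Both, ENSG00000233024 and ENSG00000183889 on chromosome 16, carry the same symbol in the gene name table, that of a member of the NPIP family of near-identical copies, so the division of reads between them is uncertain. ENSG00000233024 was at 28.5 to 32.5 CPM in SDT Low and 36.1 to 42.8 in SDT Medium, but at 40.9 and 43.7 in PMT Low and 27.1 and 32.6 in PMT Medium. Its steps of 0.38 and -0.50 differed by 0.88 (SE 0.12, adjusted p = 0.034). For ENSG00000183889 the steps of 0.21 and -0.48 differed by 0.68 (SE 0.10, adjusted p = 0.036). Without both SDT Low 3 and PMT Low 3, neither was called (adjusted p = 0.26 and 0.69). Leaving out 1 library, the call of ENSG00000233024 was lost without SDT Medium 2, SDT Medium 3, SDT Low 2, PMT Medium 2, PMT Low 2 or PMT Low 3, and that of ENSG00000183889 was kept only without SDT Medium 2 or PMT Medium 3 (adjusted p up to 0.49 for both). ZNF45, a zinc finger gene, came next in that direction at 0.71 (adjusted p = 0.77). In the other direction OSCP1, MRPL30 and LPAR6 came first, with adjusted p of 1.00 each.

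SDT and PMT share no library in these steps, so the sign of a step in one formula can be read among genes picked in the other. Of the 685 genes at an unadjusted p under 0.05 within SDT, 62.0% had the same sign in PMT, and of the 739 picked within PMT, 60.4% had the same sign in SDT. Over all genes tested the share with the same sign was 52.6%. Each set of picked genes was a part of the 15000 genes tested no larger than the 0.05 threshold. Genes are not independent of each other, and these shares are descriptions.

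The same dose step was available for 2 single herbs extracted with 70% ethanol, Atractylodis Rhizoma and Panax ginseng. Each had 3 libraries at Medium and 3 at Low. Both herbs were chosen, with earlier results known, from 4 ethanol extracts with 3 libraries a dose. The others, of Poria cocos and Glycyrrhizae Radix, do not enter the fit. Atractylodis shares a set code with Poria, and ginseng shares another with Glycyrrhiza. Both codes differ from that of the formulas. Of 15621 genes, 2 had a formula step that differed from the mean step of Atractylodis and ginseng (0.0128%). CYP1A1 moved by 0.68 in the formulas and by -0.06 in the Atractylodis and ginseng extracts (called the ethanol extracts from here), a difference of 0.74 (SE 0.095, 95% interval 0.54 to 0.93, adjusted p = 0.0013). Its levels were 10.7 ± 1.1 CPM at Low and 10.9 ± 1.3 at Medium in Atractylodis, and 9.33 ± 0.74 and 8.42 ± 0.16 in ginseng (SD, n = 3). In the extracts outside the fit CYP1A1 was higher at Medium than at Low in every library: 11.9 ± 1.3 CPM at Low and 19.5 ± 4.4 at Medium in Poria, and 37.2 ± 2.5 and 289.8 ± 2.5 in Glycyrrhiza (SD, n = 3). The extracts of Angelica and Paeonia, with 1 library at each dose, held 35.1 and 10.6 CPM at Low and 58.4 and 13.9 at Medium. The difference of the formulas' step from any of these extracts outside the fit was not tested. The contrast above thus holds for Atractylodis and ginseng alone. The other gene, SEPTIN14P5, a low-abundance transcript, is described by its levels alone: it stayed at or below 0.601 CPM in all 10 formula libraries, at 0 in PMT Low 3, and its fitted difference of 4.22 (adjusted p = 0.0070) depends on such small counts. Leaving out 1 of the 22 libraries at a time, CYP1A1 was called in all 22 fits (adjusted p 0.00024 to 0.0068). SEPTIN14P5 was called in 19 and lost without SDT Medium 1, PMT Medium 3 or PMT Low 3 (adjusted p up to 0.76).

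HAMP moved by -0.78 in the formulas and by -0.11 in the ethanol extracts, a difference of -0.67 (95% interval -1.04 to -0.31), which did not pass the adjustment (unadjusted p = 0.00097, adjusted p = 1.00). In Poria, HAMP was at 4.57 ± 1.1 CPM at Low and 2.25 ± 0.13 at Medium, and in Glycyrrhiza at 4.44 ± 0.56 and 5.67 ± 0.17 (SD, n = 3), also untested against the formulas. PEDS1-UBE2V1 stepped by 0.60 in the formulas and 0.09 in the ethanol extracts, a difference of 0.52 (95% interval -0.12 to 1.15). SLC2A3 stepped by 0.23 in the formulas and 0.22 in the ethanol extracts, HDAC5 by -0.29 and -0.21, and TMCC1 by 0.28 and 0.19. PFKFB4 stepped by 0.28 and 0.18 and DEPP1 by -0.38 and -0.21. For these 2 genes the Atractylodis libraries lay far apart. PFKFB4 was at 31.2 ± 11.4 CPM at Low and 33.3 ± 15.4 at Medium in Atractylodis, and 32.3 ± 1.1 and 39.2 ± 2.3 in ginseng. DEPP1 was at 21.7 ± 6.2 and 20.9 ± 8.8 in Atractylodis, and 21.2 ± 2.0 and 16.7 ± 1.3 in ginseng (SD, n = 3). The interval of the difference was -0.23 to 0.25 for SLC2A3, wide enough to hold a difference as large as the steps. The hypoxia targets had a median step of 0.09 in the ethanol extracts too, with 23 of 25 above 0, and glycolysis 0.09 with 15 of 16. For AKR1B10 the ethanol step was 0.36 (adjusted p = 0.0016) against 0.20 in the formulas. These 2 contrasts share no library: of the 894 genes at an unadjusted p under 0.05 in the formulas, 80.5% had the same sign in the ethanol extracts, against 60.9% of all 15000 genes.

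**Figure D4:**
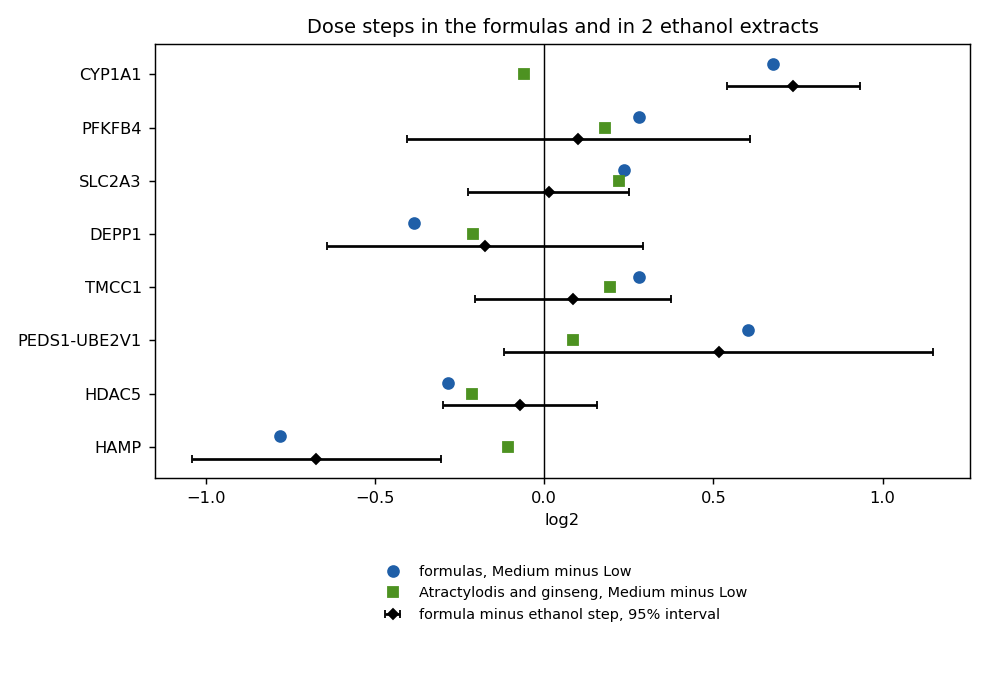
Medium minus Low on the log2 scale for 8 called genes in the formulas (circles) and averaged over Atractylodis and ginseng (squares), with the difference of the 2 steps and its 95% interval (diamonds). The intervals of CYP1A1 (0.54 to 0.93) and HAMP (-1.04 to -0.31) lie away from 0, and those of the other 6 genes include 0.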

How the data were processed

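The submitters' processing notes list FastQC 0.11.9, Trim Galore 0.6.5, STAR 2.7.3a and RSEM 1.3.3 with the GRCh38 (hg38) build. The annotation and the strand setting are not given in the sources used here, so reads of overlapping genes may not be told apart. The values the authors deposited are RSEM expected counts per gene (60675 genes), with no scaling. A fractional part beyond 0.005 was found in 23.4% of nonzero entries, and 210 of the 270 sample columns belong to no sample used here. Libraries were directional mRNA libraries, per the labels' protocols.

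Expected counts were rounded, genes with few counts were dropped with filterByExpr, and library sizes were scaled by TMM. Levels are CPM on TMM sizes over all 60 libraries. Formula plus dose was fitted over the 10 libraries with edgeR 4.0.16 in R 4.3.3. The quasi-likelihood F test was used, and p-values were adjusted after Benjamini and Hochberg over all genes tested (threshold 0.05). Steps are log2 values from the fit. The difference from Atractylodis and ginseng used 22 libraries and weighted SDT 0.6 and PMT 0.4. Dispersion over all genes was 0.00271, or 5.2% between replicates. The alternatives were DESeq2 1.42.0, other scalings, filters and sample sets, a replicate block, and leaving out libraries. Symbols were found for 56558 identifiers and GENCODE 29 coordinates for 57055.

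The genes named are those called, the 5 smallest p-values each way, up to 4 called members of each of 51 gene lists (or, with none called, the 2 with the smallest p), AKR1B10, CYP1A1 and HAMP, and the 3 smallest p-values each way for differences between steps. The members and the lists were chosen with earlier results of these data known. The fits were tested on simulated data. No 2 libraries of a group agreed within sampling noise (chi-square per degree of freedom 3.77 or more). A result for 1 called gene is not reported here.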

Additional observations from a re-analysis of the deposited data

Results flagged for a closer look

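Among 39 checks of 5 libraries each (levels of the 11 genes with the smallest p-values in either direction, total counts and the mitochondrial share, at each dose), 1 library stood far from the others, where chance gives about 1 in 20. FRY was at 19.1 CPM in SDT Medium 2, and the other 4 Medium libraries were at 17.3 to 17.8.

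For 4 genes the dose step differed between groups by a test of the difference. ENSG00000183889 (0.68) and ENSG00000233024 (0.88) moved up in SDT and down in PMT. CYP1A1 moved more in the formulas than in Atractylodis and ginseng by 0.74, and the fitted difference for SEPTIN14P5, at counts near 0, was 4.22.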

How the results depend on the processing

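Called genes for the step in both formulas (9) numbered 114 with no low-count filter, 15 with a replicate block, 25 with DESeq2, 3 with all 54 replicated libraries in the fit, 5 without both SDT Low 3 and PMT Low 3 (an alternative chosen after seeing the data), and 1 to 8 leaving out 1 library. With 54 libraries 2 of the 9 were kept, CYP1A1 and HAMP. The same settings gave, for SDT (2), 87 with no filter, 4 with DESeq2, 1 with 54 libraries and 1 to 2 leaving out 1. For PMT (0) they gave 67, 2 with DESeq2 and 0 to 2. For the SDT step against the PMT step (2) they gave 52 with no filter, 1 with all 15 formula libraries, 0 with 54, 0 without both SDT Low 3 and PMT Low 3 and 0 to 3 leaving out 1. Against Atractylodis and ginseng (2) they gave 60 with no filter, and 1 with a mean of at least 1 CPM, with the replicate block or without both SDT Low 3 and PMT Low 3, and 1 to 3 leaving out 1. The cause of these differences was not tested.

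Same-numbered Medium and Low libraries deviated together little (correlations 0.071, 0.018 and 0.019 in SDT, -0.0049 in PMT), so the numbers were not taken as pairs. With 2 PMT libraries a dose, both PMT pairs hold the same value by construction, so PMT gives 1 comparison. Whether the numbers mark pairs is not settled by such values. The block moved no called gene in direction. SDT replicate 1 alone correlated best with its own number.

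Of 1953 recomputed steps of 103 named genes, 9 changed sign, all in genes with adjusted p over 0.9 there: IGF1R (0.0094) and KRT19 (-0.0097) without both SDT Low 3 and PMT Low 3, and, over the fits leaving out 1 library, RN7SL2 (-0.72 to 0.0022), PECAM1 (-0.036 to 0.11), VWF (-0.17 to 0.19), CD14 (-0.0029 to 0.084) and KRT19 (-0.031 to 0.065). List medians moved by more than the spread between Medium libraries in 32 of 968 recomputations. The variation between replicates was 5.2%, and how detection depends on a gene's count was not measured.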

Other observations

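IDI2-AS1, an antisense transcript outside the lists, was at 0.532, 0.482 and 0.570 CPM in SDT Low 1, PMT Low 2 and SDT Low 2, and at 0 in both SDT Low 3 and PMT Low 3 and in all 5 Medium libraries. It was also at 0 in some High and some vehicle libraries, so no fold is given.

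Among genes of the daily clock, BHLHE40, a repressor of the clock that is also a hypoxia target, had every Medium library above every Low library (71.0 to 77.7 against 61.2 to 70.7 CPM). Its step was 0.16 (SE 0.042, adjusted p = 0.42) and its High range was 65.7 to 70.0 CPM. DBP, a clock output factor, differed by -0.30 (SE 0.11, adjusted p = 0.71). Of the 17 clock genes tested, 7 were above 0. EGR1, an immediate early gene, was at 20.6 to 28.0 CPM at Low and 25.4 to 29.8 at Medium (step 0.24, adjusted p = 0.52), and 15 of 19 genes of its list were above 0 with a median of 0.05. G6PC1, the last enzyme of gluconeogenesis, differed by -0.24 (adjusted p = 0.49), and 4 of 12 genes of that list were above 0 with a median of -0.08.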
